A study of Mus musculus with 30 samples.

Results

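Cathepsins are the main proteases of the lysosome, and the transcripts of 10 cathepsin genes (Ctsa, Ctsb, Ctsc, Ctsd, Ctsf, Ctsh, Ctsk, Ctsl, Ctss and Ctsz) were measured in mouse macrophages and in PDPN+ cells. The members were found by symbol through their Ensembl identifiers, 10 of 50764 gene models, and all 10 passed the low count filter in each fit. PolyA RNA was sequenced in 30 libraries that form 10 groups of 3. PDPN+ cells, which carry podoplanin and are labelled om_pdpn, were treated with 1 uM BMS493, kept in co-culture with macrophages, kept in a transwell culture, or cultured alone. Macrophages, titled LCM, were treated with 1 uM BMS493, kept in co-culture with PDPN+ cells, kept in a transwell culture, treated with 1 uM all-trans retinoic acid (ATRA), cultured alone, or analysed ex vivo. ATRA activates the retinoic acid receptors, and BMS493 is an inverse agonist of the same receptors. Whether macrophages and PDPN+ cells shared the BMS493 cultures is left unsaid in the labels, and the BMS493 groups were therefore compared with co-culture and with culture alone. Markers of the other cell type were higher in the BMS493 libraries than in those cultured alone, as given below. If the cells shared these cultures, contact and BMS493 cannot be told apart in the comparison with culture alone. Cells from culture were sorted on F4/80 or podoplanin, the ex vivo macrophages are labelled as lavage cells, and the sources used here do not give how these were sorted. They do not give strain, genotype, sex or age either.

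Lysosomal proteases are made as inactive precursors, sorted to the lysosome through mannose 6-phosphate receptors and related carriers, and matured there at acid pH. Ctsd encodes an aspartic endopeptidase, Ctsa a serine carboxypeptidase that also protects other lysosomal enzymes, and the other members encode papain-like cysteine proteases. Among these, Ctsl, Ctss, Ctsk and Ctsf encode endopeptidases, Ctsb an endopeptidase that also removes dipeptides from the carboxyl end, Ctsc the dipeptidyl peptidase that activates granule serine proteases, Ctsh an aminopeptidase and Ctsz a carboxypeptidase. Macrophages are rich in these enzymes, and cathepsin S is known for trimming the invariant chain of class II molecules in antigen-presenting cells, while cathepsin K is known for degrading collagen in osteoclasts. Cystatins inhibit the papain-like cysteine members.

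Library totals ranged from 29350158 to 54099085 counts, from 2148 to 25000 sorted cells, and the RNA integrity number was 9.2 to 10. The labels name 3 batches (mbb336, mbb339 and mbb340), which hold replicates 1, 2 and 3 of all groups in that order. The 16 macrophage marker genes summed to 85.3 to 148 CPM in PDPN+ cells cultured alone and to 140500 to 195600 CPM in macrophages cultured alone. Lyz2, the macrophage lysozyme gene and one of these markers, took 12.4%, 14.4% and 9.85% of all counts in macrophages cultured alone. The macrophage sums thus rest largely on that gene. The 16 fibroblast marker genes summed to 7912 to 25450 CPM in PDPN+ cells cultured alone and to 13.5 to 140 CPM in macrophages cultured alone. The 8 mesothelial marker genes summed to 1636 to 2831 CPM in PDPN+ cells cultured alone and 0.256 to 1.21 CPM in macrophages cultured alone. They summed to 40.7 to 1268 CPM in PDPN+ co-culture, 246 to 1661 in transwell culture and 17.85 to 1372 with BMS493. The co-culture libraries of batch mbb336 have titles and source names that disagree on the cell type, and the titles were used. The macrophage markers summed to 1766 to 2562 CPM in the PDPN+ co-culture libraries and to 114500 to 194700 CPM in the macrophage co-culture libraries, with no overlap, so all 3 batches follow the titles. CPM is a gene's count relative to the TMM-scaled library total. Levels between genes are compared on the authors' deposited normalised RPKM (nRPKM), which divides by gene length, and on CPM only as a check at the end. All values are of bulk RNA, in which fewer cells of a type and less RNA per cell cannot be told apart.

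Short stretches of promoter sequence are shown because the TFEB family of transcription factors, known to switch on lysosomal genes, binds E-boxes of the letters CACGTG, and the levels of that family are described below. Windows of 250 bases before the RefSeq start (build GRCm38.p6) were on hand for 8 of the 10 members, in 9 windows, and not for Ctsb or Ctsh. CACGTG, searched on both strands, was found in 6.02% of 32851 such windows and in those of 4 members. The sequences below read 5′ to 3′ on the gene's strand, with the match in capitals.
Ctsa: agcaaactgtCACGTGatgcag
Ctsd, farther match: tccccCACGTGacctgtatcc
Ctsd, nearer match: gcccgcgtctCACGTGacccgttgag
Ctsl: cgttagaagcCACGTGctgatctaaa
Ctsf: ccccgtggtcCACGTGcctcgcgtaa
The Ctsa stretch lies on the plus strand at chr2:164833751-164833772, with the match 12 to 7 bases before the start. The Ctsd stretches lie on the minus strand at chr7:142388057-142388077 and chr7:142387910-142387935, with matches 245 to 240 and 98 to 93 bases before the start. The Ctsl stretch lies on the minus strand at chr13:64370741-64370766, and the Ctsf stretch on the plus strand at chr19:4855076-4855101. The longer palindrome TCACGTGA, which contains CACGTG, was in 0.785% of all windows and in those of Ctsa and Ctsd (its nearer match). Of the other motifs searched on both strands, the AP-1 motif TGANTCA was in 6.75% of windows and a retinoic acid receptor motif (AGGTCA repeated on the same strand after a gap of 5 bases) in 0.00913%, and neither was in a member's window. The PU.1 motif GAGGAAGT was in 2.44% of windows and, among the members, in that of Ctsc, as its reverse complement ACTTCCTC, 151 to 144 bases before the start. The gene models of GENCODE on the same build start elsewhere than RefSeq for some members. The Ctsa stretch, the nearer Ctsd stretch and the Ctsl stretch lie within the GENCODE gene, while the farther Ctsd stretch and the Ctsf stretch lie upstream of it. A match describes these letters only and is not evidence that a factor binds.

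Ctsk and Ctss are neighbours on chromosome 3 of GRCm38, at 95499256 to 95509362 and 95526786 to 95556403 on the plus strand, with 17423 bases and no annotated gene between them. Their upstream sequences are shown because Ctsk and Ctss had the widest spans of group means among the members, as described below. The Ctsk window spans chr3:95498960-95499209 and the Ctss window chr3:95526536-95526785, and neither holds any of the 5 motifs.
Ctsk: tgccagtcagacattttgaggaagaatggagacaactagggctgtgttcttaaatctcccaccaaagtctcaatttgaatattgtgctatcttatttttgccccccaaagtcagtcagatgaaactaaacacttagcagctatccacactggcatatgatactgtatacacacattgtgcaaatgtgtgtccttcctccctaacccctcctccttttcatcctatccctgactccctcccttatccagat
Ctss: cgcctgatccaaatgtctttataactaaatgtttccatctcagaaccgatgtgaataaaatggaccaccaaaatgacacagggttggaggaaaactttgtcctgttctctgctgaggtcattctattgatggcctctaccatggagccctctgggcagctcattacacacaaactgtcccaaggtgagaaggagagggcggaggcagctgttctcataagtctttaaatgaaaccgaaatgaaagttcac
Annotated genes overlap 7 of the members. Ctsd (chr7:142375911-142388038, minus strand) overlaps Gm49369 on the same strand, Ctsb (chr14:63122462-63145923) overlaps Fdft1, Ctsa (chr2:164832873-164841032) overlaps Neurl2 and Pltp, Ctsz (chr2:174427493-174439039) overlaps Nelfcd, Ctsc (chr7:88278085-88310888) overlaps Gm26522, and Ctsl (chr13:64359337-64370890) overlaps Gm47123 and Gm49230. Ctss overlaps the pseudogene Hmgb1-ps5. The sources used here do not give how the counting treated strand and overlaps, and a share of these counts could belong to the overlapping genes. Ctsf (chr19:4855130-4860918), Ctsh (chr9:90054152-90076089) and Ctsk overlap no annotated gene.

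Cathepsin transcripts were a large part of all macrophage RNA in culture. In macrophages cultured alone the 10 genes together took 5.48% ± 0.471 of all counts, against 1.59% ± 0.116 in ex vivo macrophages (SD, n = 3 each). The share was 6.48% ± 1.71 with ATRA, 6.60% ± 1.26 in co-culture, 5.09% ± 0.641 in transwell culture and 5.78% ± 1.70 with BMS493. In PDPN+ cells it was 0.454% ± 0.0494 with BMS493, 0.526% ± 0.0989 in co-culture, 0.373% ± 0.0603 in transwell culture and 0.397% ± 0.0654 alone. Ctsd alone took 3.22% ± 0.289 of all counts in macrophages cultured alone, against 0.588% ± 0.0713 in ex vivo macrophages.

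**Figure D1:**
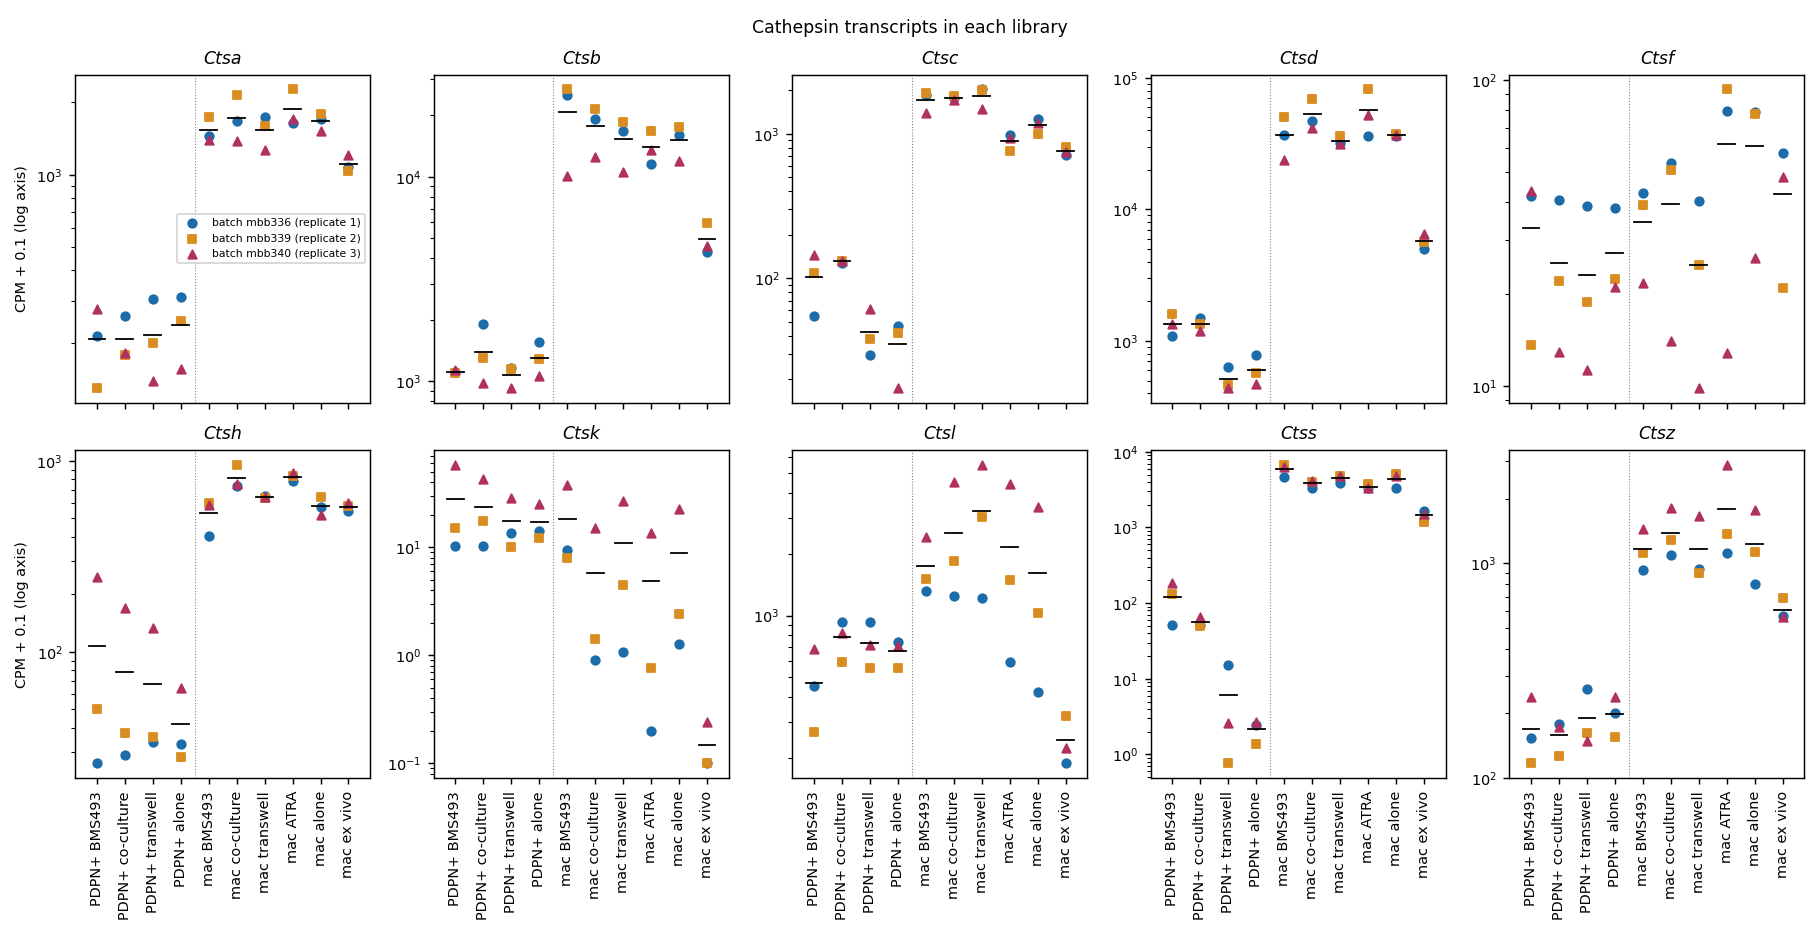
Each panel plots 1 gene, with CPM plus 0.1 on a log axis and the 10 groups along the x axis, PDPN+ groups left of the dotted line. Symbols and colours give the batch of each library and bars the mean of 3 libraries; Ctss in PDPN+ cells alone sits at 1.26 to 2.55 CPM, below every macrophage library, and batch mbb340 (triangles) tops the cultured macrophage groups for Ctsk, Ctsl and Ctsz.

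On the length-scaled nRPKM scale, Ctsd had the highest mean share in every group and its margin differed. It made up 66.9% ± 2.23 of the summed nRPKM of the 10 genes in macrophages cultured alone, against 44.1% ± 3.16 in ex vivo macrophages, and the libraries of the groups did not overlap. Ctsb made up 12.3% ± 2.28 in macrophages cultured alone, against 17.2% ± 2.96 ex vivo, and Ctss 12.4% ± 2.18, against 17.6% ± 3.70 ex vivo, so that the shares of these genes lay lower although their levels were higher. Ctsh made up 1.38% ± 0.125 in macrophages cultured alone and 5.85% ± 0.0828 ex vivo. In PDPN+ cells cultured alone the make-up was flatter. Ctsd made up 30.3% ± 3.76 of their summed nRPKM, Ctsb 29.6% ± 2.70, Ctsz 15.1% ± 4.07 and Ctsl 11.7% ± 1.75, while Ctss made up 0.163% ± 0.0571. Ctsd and Ctsb thus differed by less than the spread between libraries there, and Ctsb was above Ctsd in replicates 2 (32.1% against 31.5%) and 3 (26.7% against 26.1%) and in replicate 2 of the transwell PDPN+ cells (31.7% against 28.7%). Because shares sum to a whole, a lower share of a gene does not show that its level fell.

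**Figure D2:**
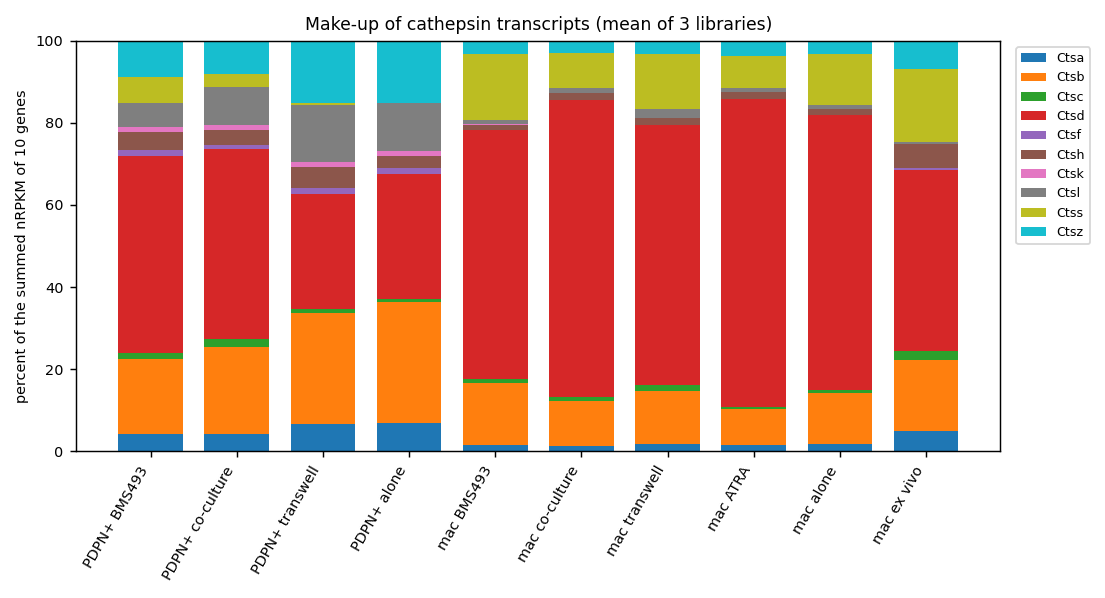
Stacked bars give each gene's percent of the summed nRPKM of the 10 cathepsin genes (y axis, 0 to 100), as the mean of 3 libraries in each of the 10 groups. Ctsd (red) takes 60.6% to 75% in the cultured macrophage groups, 44.1% in ex vivo macrophages and 28.1% to 48.2% in the PDPN+ groups.

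The order of levels differed between members. Ctsd ran from 56491 ± 23176 CPM in macrophages with ATRA through 52871 ± 14620 in co-culture, 36969 ± 722 alone, 36961 ± 13426 with BMS493 and 33023 ± 2687 in transwell culture to 5712 ± 756 ex vivo. Among PDPN+ cells it ran from 1342 ± 250 CPM with BMS493 and 1340 ± 155 in co-culture to 604.7 ± 159 alone and 513.9 ± 108 in transwell culture. Of the 9 steps between neighbouring groups in that order, 4 had no overlap between libraries. Those were co-culture above alone and transwell above ex vivo in macrophages, ex vivo macrophages above PDPN+ cells with BMS493, and co-culture above alone in PDPN+ cells. Ctsa, Ctsb, Ctsz and Ctss shared a plainer order, with all cultured macrophage groups above ex vivo macrophages and these above all PDPN+ groups; within the cultured macrophages no neighbouring groups were separated. Ctsh put macrophages with ATRA (827 ± 44.4 CPM) and in co-culture (815 ± 119 CPM) highest and PDPN+ cells alone (41.8 ± 20.0 CPM) lowest. Ctsk, Ctsl and Ctsf had no neighbouring groups whose libraries were fully apart. Ctsk was highest on average in PDPN+ cells with BMS493, at 27.7 ± 26.2 CPM, and Ctsf lay between 22.9 ± 14.3 CPM in transwell PDPN+ cells and 61.8 ± 43.0 CPM in macrophages with ATRA.

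Macrophages cultured alone had more RNA of most cathepsins than ex vivo macrophages. Of the 10 genes, 6 rose at an adjusted p under 0.05 and none fell, where 17.8% of all genes tested were called and 9.31% rose. The median log2 fold change of the 10 was 1.32, against 0.08 over all genes tested. Ctsd had 36329, 37752 and 36827 CPM in macrophages cultured alone, against 4963, 5698 and 6476 CPM in ex vivo macrophages. The groups were far apart and the cultured libraries lay close together. Its log2 fold change was 2.71 ± 0.36 (SE, adjusted p = 0.000141). Ctss had 3311, 5159 and 4745 CPM in macrophages cultured alone, against 1652, 1169 and 1522 CPM ex vivo, with no overlap (log2 fold change 1.61 ± 0.23, adjusted p = 0.000201). Ctsb had 16069, 17525 and 12009 CPM in macrophages cultured alone, against 4301, 5978 and 4577 CPM ex vivo. Every cultured library was above every ex vivo library, and the log2 fold change was 1.63 ± 0.37 (adjusted p = 0.00675). These 3 calls held under all 12 alternatives run for them, leaving out any library included.

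The other 3 genes that rose did so less firmly. Ctsl, which in the same comparison had 424, 1030 and 3393 CPM in macrophages cultured alone, against 189, 322 and 224 CPM ex vivo, did not overlap between the groups but spread widely among the cultured libraries. Its log2 fold change was 2.71 ± 0.81 (adjusted p = 0.0306), and 1.53 (adjusted p = 0.0907) without batch mbb340, whose library was highest. Ctsk had 1.18, 2.33 and 22.7 CPM in macrophages cultured alone, against 0, 0 and 0.143 CPM ex vivo, where the 3 libraries held 5 counts in all. Its log2 fold change was 7.44 ± 2.27 (adjusted p = 0.0333). The ratio of scaled counts pooled over libraries was 169 (95% exact binomial interval 71.9 to 521, counting error only). Replicate 3 held 620 of the 761 counts of the macrophages cultured alone. With 5 counts ex vivo, Ctsk passed the low count filter only through the cultured libraries, and it is counted among the genes that rose. Ctsk was called in 2 of 6 fits that left out a library. Ctsc, with 1271, 995 and 1198 CPM in macrophages cultured alone against 715, 812 and 747 CPM ex vivo, was apart in every library (log2 fold change 0.62 ± 0.19, adjusted p = 0.0338) and was also called in 2 of those 6 fits. Ctsl and Ctsk kept the call without replicate 1 or 2 of the macrophages cultured alone, and Ctsc without replicate 2 or 3, while leaving out any ex vivo library ended all 3 calls (3 cathepsins called in each such fit).

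Ctsa and Ctsz did not pass the test although their groups did not overlap. Ctsa had 1715, 1795 and 1523 CPM in macrophages cultured alone, against 1075, 1038 and 1210 CPM ex vivo (log2 fold change 0.61 ± 0.21, adjusted p = 0.0545). Ctsz had 805, 1136 and 1772 CPM in macrophages cultured alone, against 570, 691 and 565 CPM ex vivo (log2 fold change 1.02 ± 0.36, adjusted p = 0.0642). DESeq2 and the fit with batch as a block called both genes, bringing the count to 8. No share of all genes called is given for these fits. In all, 8 of 10 members had every cultured library above every ex vivo library, where 16.5% of all genes tested did. Ctsh, with 575, 648 and 523 CPM in macrophages cultured alone and 545, 578 and 600 CPM ex vivo, overlapped fully, and its log2 fold change of 0.03 ± 0.17 turned to -0.017 without the low count filter. Ctsf overlapped too, at 26.2 to 78.9 CPM in macrophages cultured alone and 20.8 to 57.9 CPM ex vivo. Fibroblast markers summed to 13.5 to 140 CPM in macrophages cultured alone and 1.69 to 13.3 CPM ex vivo, and granulocyte markers to 4.96 to 84.6 CPM in macrophages cultured alone and 43.9 to 132 CPM ex vivo; their part in these changes was not tested.

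Macrophages with ATRA and in co-culture were each compared with the same ex vivo libraries. Culture itself cannot be told apart from ATRA or from co-culture in these comparisons, and those with culture alone are given below. With ATRA 6 of 10 cathepsins rose, where 8.52% of all genes tested rose and 14.9% were called. In co-culture 6 rose, where 9.47% of all genes tested rose and 14.9% were called, and none fell in either comparison. Ctsd had 35977, 81630 and 51866 CPM with ATRA and 47324, 69453 and 41836 CPM in co-culture, all above the highest ex vivo library at 6476 CPM. Its log2 fold changes were 3.29 ± 0.37 (adjusted p = 5.25e-05) with ATRA and 3.17 ± 0.37 (adjusted p = 6.78e-05) in co-culture. Ctss rose by a log2 fold change of 1.24 ± 0.22 with ATRA (adjusted p = 0.00199) and 1.37 ± 0.22 in co-culture (adjusted p = 0.000943). Ctsc passed in co-culture and not with ATRA, and the difference between these effects was not tested. It had 1773, 1826 and 1725 CPM in co-culture, against 715, 812 and 747 CPM ex vivo, and rose by 1.19 ± 0.19 (adjusted p = 0.000833). With ATRA it had 976, 764 and 943 CPM, overlapping the ex vivo libraries, at a log2 fold change of 0.22 ± 0.19 (adjusted p = 0.495). Ctsb, Ctsl and Ctsz passed in both comparisons and Ctsa with ATRA. Every ATRA library was above every ex vivo library for 7 members, where 17.8% of all genes tested were, and every co-culture library for 9, where 22.1% were. Leaving out ex vivo replicates 1, 2 or 3 brought the calls with ATRA to 3, 4 and 2 and those in co-culture to 4, 5 and 4, and Ctsd and Ctss kept theirs in all of these fits. Leaving out a cultured library gave 4 calls without ATRA replicate 2 and 5 or 6 in the other fits. Ctsk did not pass the edgeR test in either, with log2 fold changes of 6.52 ± 2.22 with ATRA (adjusted p = 0.0615) and 6.82 ± 2.23 in co-culture (adjusted p = 0.0527), from libraries at 0.098 to 13.4 CPM with ATRA and 0.813 to 14.95 CPM in co-culture. DESeq2 called 8 members with ATRA and 9 in co-culture, Ctsk and Ctsh among them in both, and Ctsk passed in 3 of 5 other settings with ATRA and in 4 of 6 in co-culture, leave-one-out fits aside. The shares of all genes called above are of edgeR, and none is given for DESeq2.

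**Figure D3:**
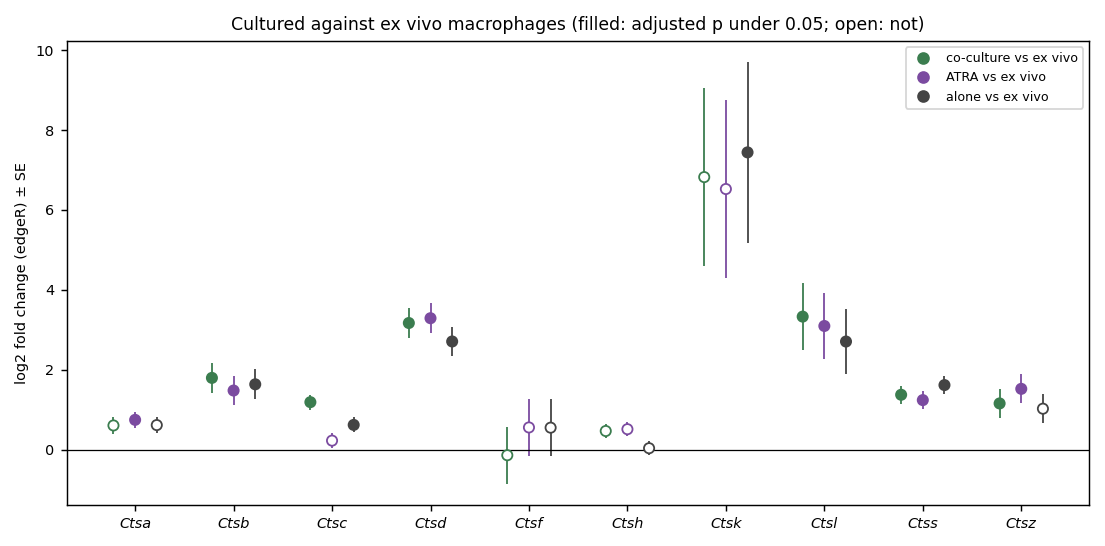
For each gene on the x axis, dots give the log2 fold change of macrophages in co-culture, with ATRA and cultured alone over ex vivo macrophages, and bars its standard error; filled dots passed an adjusted p under 0.05. Ctsd stands at 2.71 to 3.29 with short bars, Ctsk at 6.52 to 7.44 with long ones, and Ctsh and Ctsf, between -0.14 and 0.55, are not filled in any comparison.

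Genes of related lysosomal lists also rose in macrophages cultured alone against ex vivo macrophages, a comparison in which 9.31% of all genes tested rose and 1510 of 17774 fell. Of 28 tested genes of the lysosomal membrane and proton pump, 23 rose and none fell, with a median log2 fold change of 1.21. Cd63, a tetraspanin of late endosomes, averaged 1249 ± 289 CPM in macrophages cultured alone and 62.2 ± 8.26 CPM ex vivo (log2 fold change 4.34, adjusted p = 3.67e-07). Atp6v0d2, a proton pump subunit typical of osteoclasts and macrophages, averaged 283 ± 200 CPM in macrophages cultured alone and 0.389 ± 0.269 CPM ex vivo (log2 fold change 9.44, adjusted p = 8.76e-05). Of the 40 other lysosomal hydrolases, 14 rose and 2 fell, with a median of 0.60. Lipa, the acid lipase, averaged 2122 ± 663 CPM in macrophages cultured alone and 297 ± 58.8 CPM ex vivo (adjusted p = 0.000174). Psap, the precursor of the saposins, averaged 7069 ± 1402 CPM in macrophages cultured alone and 1937 ± 351 CPM ex vivo (adjusted p = 0.000935). Arsa, arylsulfatase A, went the other way, at 42.9 ± 2.45 CPM in macrophages cultured alone and 88.9 ± 7.57 CPM ex vivo (adjusted p = 0.00381).

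The other lists held fewer genes, and their counts are read against the same shares of all genes, 9.31% that rose and 1510 of 17774 that fell. In the TFEB family 2 of 4 genes rose. Mitf averaged 35.9 ± 1.33 CPM in macrophages cultured alone and 11.4 ± 2.46 CPM ex vivo (log2 fold change 1.67, adjusted p = 0.000165), and Tfec averaged 45.3 ± 26.6 CPM in macrophages cultured alone and 11.1 ± 2.21 CPM ex vivo (log2 fold change 2.02, adjusted p = 0.0103). Of 15 genes that sort enzymes to lysosomes 3 rose, led by the adaptor Gga2 at a log2 fold change of 1.73. Of 8 genes of class II presentation none rose and 3 fell, among them H2-Aa with a log2 fold change of -3.07 (adjusted p = 0.00427). Its averages were 3.30 ± 1.53 CPM in macrophages cultured alone and 28.1 ± 18.8 CPM ex vivo. Cd74, the invariant chain that cathepsin S trims, averaged 36.2 ± 16.8 CPM in macrophages cultured alone and 171 ± 151 CPM ex vivo (log2 fold change -2.24, adjusted p = 0.0333). The Cd74 call held in 3 of 6 fits that left out a library, and without ex vivo replicate 2 the log2 fold change was -1.21 (adjusted p = 0.248). Of 6 tested cystatins 1 rose, Cstb, which encodes the cytosolic inhibitor stefin B, with 282, 608 and 1086 CPM in macrophages cultured alone against 70.6 to 78.7 CPM ex vivo (adjusted p = 0.00213).

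With ATRA against culture alone, none of the 10 cathepsins was called by edgeR or by DESeq2, where 0.326% of all genes tested were called, and 1 gene (Ctsh) had an unadjusted p under 0.05. Ctsh had 780, 832 and 869 CPM with ATRA, against 575, 648 and 523 CPM in macrophages cultured alone. Every ATRA library was above every library cultured alone, yet the log2 fold change of 0.48 ± 0.17 did not pass (adjusted p = 0.421). Ctsc was also apart, in the other direction, with 976, 764 and 943 CPM with ATRA against 1271, 995 and 1198 CPM in macrophages cultured alone (log2 fold change -0.39 ± 0.19, adjusted p = 0.672). These were the 2 members without overlap, where 8.87% of all genes tested had none. Ctsd reached its highest level with ATRA, 81630 CPM in replicate 2, but replicate 1 had 35977 CPM, below all 3 libraries cultured alone, and the log2 fold change was 0.58 ± 0.34 (adjusted p = 0.788).

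A cathepsin inhibitor did pass with ATRA. Cst7, which encodes cystatin F, an inhibitor of cathepsins C and L made by blood-derived cells, had 37.2, 57.2 and 50.0 CPM with ATRA, against 3.503, 1.631 and 0.476 CPM in macrophages cultured alone. The groups lay far apart, with a log2 fold change of 4.64 ± 0.88 (adjusted p = 0.0407). It was the only called gene among the cathepsins and their related lists. Leaving out 1 library at a time gave an adjusted p of 0.0429 to 0.249, and the call held in 1 of those 6 fits, without replicate 1 of the macrophages cultured alone. Cst7 averaged 6.83 ± 2.04 CPM in co-culture, 4.89 ± 2.08 CPM in transwell culture, 0.728 ± 0.807 CPM with BMS493 and 1.10 ± 0.748 CPM ex vivo. Cst3, the secreted cystatin C, did not pass, at 955 ± 192 CPM with ATRA and 1166 ± 381 CPM in macrophages cultured alone.

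No macrophage cathepsin passed the edgeR test in culture with PDPN+ cells. In co-culture against culture alone edgeR called none of 10 (0.698% of all genes tested were called), 2 had an unadjusted p under 0.05, and DESeq2 called 1, Ctsc. Ctsc had 1773, 1826 and 1725 CPM in co-culture, against 1271, 995 and 1198 CPM in macrophages cultured alone. The co-culture libraries lay close together and above all libraries cultured alone, with a log2 fold change of 0.57 ± 0.19 (adjusted p = 0.199; 0.0180 by DESeq2). In transwell culture Ctsc had 2030, 2012 and 1487 CPM, again above all libraries cultured alone (log2 fold change 0.64 ± 0.19, adjusted p = 0.306; 0.0175 by DESeq2). There, edgeR called none of 10, DESeq2 called Ctsc, 1 had an unadjusted p under 0.05, and 0.0281% of all genes tested were called. Ctsh had 739, 953 and 755 CPM in co-culture, above the macrophages cultured alone (log2 fold change 0.43 ± 0.17, adjusted p = 0.303). Ctsd in co-culture was above all libraries cultured alone as well (0.46 ± 0.34, adjusted p = 0.608). In all, 3 members had every co-culture library above every library cultured alone, where 8.28% of all genes tested did. In transwell culture 2 had no overlap, Ctsc above and Ctsd below culture alone, where 10.9% of all genes tested had none.

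Co-culture against transwell called none of 10 by either tool, with none at an unadjusted p under 0.05 (0.0394% of all genes tested were called). Ctsd and Ctsh were higher in every co-culture library than in any transwell library, 2 of 10 where 5.34% of all genes tested were. Fibroblast markers summed to 320 to 1307 CPM in co-culture macrophages, 37.5 to 172 CPM in transwell macrophages and 13.5 to 140 CPM in macrophages cultured alone, and their part in these values was not tested. Ctsc, Ctsd and Ctsh were all lower in PDPN+ co-culture cells than in any macrophage library.

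With BMS493 no macrophage cathepsin passed the edgeR test without a batch term. Against co-culture edgeR called none of 10 (0.85% of all genes tested were called), 2 had an unadjusted p under 0.05 (Ctsh and Ctss), and DESeq2 called Ctsh. Ctsh had 405, 602 and 590 CPM with BMS493, against 739, 953 and 755 CPM in co-culture. The groups did not overlap, and the log2 fold change was -0.64 ± 0.17 (adjusted p = 0.117; 0.00614 by DESeq2). Ctss had 4656, 6704 and 6215 CPM with BMS493, against 3361, 4040 and 4158 CPM in co-culture, also without overlap (0.58 ± 0.22, adjusted p = 0.400). These were the 2 members without overlap, where 15.5% of all genes tested had none. Ctsk had 9.29, 7.80 and 37.8 CPM with BMS493, against 0.813, 1.31 and 14.95 CPM in co-culture, higher in each batch although the groups overlapped. Its log2 fold change was 1.66 ± 1.60 (adjusted p = 0.903) without a batch term and 2.69 ± 0.60 (adjusted p = 0.0393) with batch as a block. Fibroblast markers summed to 710 to 1022 CPM in these macrophages with BMS493 and 320 to 1307 CPM in co-culture. Ctsk in PDPN+ cells was 10.3 to 57.8 CPM with BMS493 and 10.2 to 42.4 CPM in co-culture, and the part of PDPN+ cell RNA in the macrophage values was not tested.

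Among the related lists, 1 of 40 hydrolases and 1 of 28 membrane and pump genes fell in macrophages with BMS493 relative to co-culture, where 129 of 17774 genes tested fell. Gaa, the acid alpha-glucosidase, averaged 121 ± 20.7 CPM with BMS493 and 251 ± 63.7 CPM in co-culture (adjusted p = 0.0226). Scarb2, which carries beta-glucocerebrosidase to the lysosome, averaged 114 ± 24.4 CPM with BMS493 and 214 ± 34.2 CPM in co-culture (adjusted p = 0.0391). When 1 library was left out, the Gaa call held in 3 of 6 fits (adjusted p up to 0.144) and the Scarb2 call in 2 of 6 (adjusted p up to 0.197). Against macrophages cultured alone, BMS493 called none of 10 cathepsins by edgeR (0.737% of all genes tested were called), 1 had an unadjusted p under 0.05, and DESeq2 called it, Ctsc. Ctsc had 1873, 1911 and 1398 CPM with BMS493, against 1271, 995 and 1198 CPM in macrophages cultured alone, the only member without overlap (0.50 ± 0.19, adjusted p = 0.245; 0.0407 by DESeq2), where 9.28% of all genes tested were higher in every BMS493 library.

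PDPN+ cells cultured alone had less RNA of most cathepsins than macrophages cultured alone, and the size of the gap differed widely between members. Of 10 genes 7 were lower and none higher by the test, where 38.9% of all genes tested were called and 16.6% were lower. The median log2 fold change was -3.23, against 0.08 over all genes. Ctss had 2.34, 1.26 and 2.55 CPM in PDPN+ cells cultured alone, against 3311, 5159 and 4745 CPM in macrophages cultured alone. The ratio of means was 2150 in favour of macrophages, with a log2 fold change of -11.10 ± 0.92 (adjusted p = 2.85e-09). Ctsd had 779, 568 and 467 CPM in PDPN+ cells cultured alone, against 36329, 37752 and 36827 CPM in macrophages cultured alone (-5.98 ± 0.39, adjusted p = 1.03e-10). Ctsc had 46.3, 41.7 and 17.3 CPM in PDPN+ cells cultured alone, against 1271, 995 and 1198 CPM in macrophages cultured alone (-5.09 ± 0.38, adjusted p = 6.65e-10).

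Ctsh (-3.83 ± 0.71, adjusted p = 0.00016), Ctsb (-3.59 ± 0.37, adjusted p = 6.31e-08), Ctsa (-2.87 ± 0.32, adjusted p = 2.28e-07) and Ctsz (-2.68 ± 0.39, adjusted p = 8.95e-06) were also lower in the PDPN+ cells on the log2 scale. These 7 calls held under all 12 alternatives run for each, and the same 7 had every PDPN+ library below every macrophage library, where 19% of all genes tested did.

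Ctsl, Ctsf and Ctsk were not lower by the test. Ctsl had 739, 551 and 712 CPM in PDPN+ cells cultured alone, against 424, 1030 and 3393 CPM in macrophages cultured alone, so the groups overlapped (-1.31 ± 0.67, adjusted p = 0.127). Ctsf had 38.3, 22.3 and 21.0 CPM in PDPN+ cells cultured alone, against 78.9, 77.2 and 26.2 CPM in macrophages cultured alone (-1.21 ± 0.69, adjusted p = 0.174). Ctsk had 14.01, 12.1 and 24.8 CPM in PDPN+ cells cultured alone, against 1.18, 2.33 and 22.7 CPM in macrophages cultured alone. The PDPN+ libraries were higher in each batch, and only the batch mbb340 macrophages reached their range. The log2 fold change of Ctsk was 0.94 ± 1.35 (adjusted p = 0.616), and it passed with batch as a block (adjusted p = 0.0219) and without batch mbb340 (2.74, adjusted p = 0.0100). Ctss and Ctsk, side by side on chromosome 3, thus had the widest spans of group means among the 10 genes, 2859-fold for Ctss and 582-fold for Ctsk, with their lowest means in different groups (PDPN+ cells alone for Ctss, ex vivo macrophages for Ctsk). The lowest mean of Ctsk rests on 5 counts.

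Most hydrolases and most genes of the lysosomal membrane and proton pump were lower in PDPN+ cells cultured alone too, where 16.6% of all genes tested were lower. Of 40 other hydrolases 32 were lower and 1 higher (Smpd1, acid sphingomyelinase, at 71.6 ± 18.8 CPM in PDPN+ cells and 44.2 ± 3.59 CPM in macrophages, adjusted p = 0.0290), and of 28 membrane and pump genes 24 were lower. The Smpd1 call held in 1 of 6 fits that left out a library, without replicate 3 of the PDPN+ cells, with an adjusted p of up to 0.186 otherwise. Of 15 sorting genes 8 were lower and of 8 class II genes 3 were lower. All 4 genes of the TFEB family were lower, among them Tfec, at 0.168 ± 0.129 CPM in PDPN+ cells and 45.3 ± 26.6 CPM in macrophages. Of 7 tested cystatins 2 were lower, Cst7, with no count in any PDPN+ library cultured alone, and Cst3, at 489 ± 263 CPM in PDPN+ cells and 1166 ± 381 CPM in macrophages (adjusted p = 0.0428). The Cst3 call held only without replicate 3 of either group when 1 library was left out, with an adjusted p of up to 0.150 otherwise.

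In PDPN+ cells, 3 cathepsins (Ctss, Ctsc and Ctsd) were higher in every co-culture library than in any library cultured alone, where 10.1% of all genes tested were, but edgeR called none of 10. In that comparison it called no gene at all (0% of all genes tested). The 3 genes had an unadjusted p under 0.05, and DESeq2 called all 3. The 0% is of edgeR only, and no share of all genes is given for the other counts. Ctss had 51.0, 50.0 and 65.8 CPM in co-culture, against 2.34, 1.26 and 2.55 CPM in PDPN+ cells cultured alone (log2 fold change 4.74 ± 0.98, adjusted p = 0.153). Ctsc had 128, 133 and 132 CPM in co-culture, against 46.3, 41.7 and 17.3 CPM in PDPN+ cells cultured alone (1.91 ± 0.42, adjusted p = 0.189). Ctsd had 1495, 1339 and 1184 CPM in co-culture, against 779, 568 and 467 CPM in PDPN+ cells cultured alone (1.15 ± 0.29, adjusted p = 0.277). The co-culture libraries came from 25000, 3730 and 2148 sorted cells, and those cultured alone from 25000 each. The part of cell number in these values was not tested.

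The same 3 genes were higher in every BMS493 library than in any library cultured alone, where 9.45% of all genes tested were. Here too edgeR called none of 10 (0.24% of all genes tested were called), the 3 genes had an unadjusted p under 0.05, and DESeq2 called all 3. The 0.24% is again of edgeR only. The BMS493 libraries came from 25000, 22909 and 8229 sorted cells. Ctss had 51.5, 131 and 182 CPM with BMS493, against 2.34, 1.26 and 2.55 CPM in PDPN+ cells cultured alone. Its log2 fold change of 5.85 ± 1.04 lay just short of the threshold (adjusted p = 0.0523) and passed under 4 of 6 other settings. BMS493 against co-culture called none of 10 by either tool, with none at an unadjusted p under 0.05 (0.0157% of all genes tested were called), and no member had groups without overlap, where 9.12% of all genes tested had. Ctsl, at 452, 268 and 689 CPM with BMS493 and 932, 595 and 819 CPM in co-culture, overlapped (log2 fold change -0.76 ± 0.36, adjusted p = 1).

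Across the transwell the excess of Ctss was small or missing. Ctss had 15.04, 0.660 and 2.49 CPM in transwell PDPN+ cells, against 2.34, 1.26 and 2.55 CPM in PDPN+ cells cultured alone, with replicate 1 above and the others within or below that range. Ctsc had 29.1, 37.7 and 61.3 CPM in transwell PDPN+ cells, against 46.3, 41.7 and 17.3 CPM in PDPN+ cells cultured alone, and its replicate 3 was above all 3 libraries cultured alone. No member was called by edgeR or DESeq2 in transwell culture against culture alone, none had an unadjusted p under 0.05 or groups without overlap, where 5.23% of all genes tested had such groups and 0% were called. Co-culture against transwell called none of 10 by edgeR (0.00523% of all genes tested were called), although Ctsc, Ctsd and Ctss had an unadjusted p under 0.05 and every co-culture library above every transwell library, where 7.01% of all genes tested did. DESeq2 called Ctsd and Ctss there.

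Macrophage markers moved with these excesses. The 16 macrophage marker genes summed to 1713 to 3977 CPM in PDPN+ cells with BMS493, 1766 to 2562 CPM in co-culture, 112 to 682 CPM in transwell culture and 85.3 to 148 CPM alone, and none of the 16 was at 0 in all libraries of any of these groups. For each PDPN+ library the marker share was taken as the median, over the 16 genes, of the excess over PDPN+ cells alone in percent of the level in the macrophages of the same condition and batch. It was 1.43%, 1.21% and 1.55% in the co-culture libraries, 0.403%, -0.00428% and 0.0247% in the transwell libraries and 1.04%, 2.06% and 2.17% in the BMS493 libraries. The single markers spread widely around these medians, from -2.75% to 2.10%, -3.23% to 1.78% and -6.98% to 2.03% in the co-culture libraries and from -16.6% to 1.29%, -12.7% to 3.08% and -6.69% to 3.58% in the BMS493 libraries. The excess of Ctss measured the same way was 1.46%, 1.19% and 1.53% in co-culture, near the median of the markers and within their range in each library. In CPM, Ctss lay 48.9, 47.9 and 63.7 above PDPN+ cells alone in co-culture, where the marker share of the macrophage level came to 48.2, 48.7 and 64.5 CPM. With BMS493 the Ctss excess was 49.5, 129 and 180 CPM, against 48.3, 138 and 135 CPM at the marker share. In transwell culture the Ctss excess was 13.0, -1.39 and 0.441 CPM, against 15.7, -0.203 and 1.17 CPM at the marker share.

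Ctsd lay 891, 735 and 580 CPM above PDPN+ cells alone in co-culture, where the marker share came to 679, 837 and 649 CPM, above it in replicate 1 and below it in the others. Ctsc lay 92.4, 97.5 and 97.1 CPM above PDPN+ cells alone in co-culture, where the marker share came to 25.4, 22 and 26.8 CPM, and this excess was 5.21%, 5.34% and 5.63% of the macrophage level, above the highest of the 16 markers in each library. With BMS493 the Ctsc excess was 20.0, 73.2 and 110 CPM, against 19.4, 39.4 and 30.3 CPM at the marker share, near it in replicate 1 and above it in the others. In transwell replicate 3 the Ctsc excess was 26.2 CPM, against 0.367 CPM at the marker share. The part of carried-over macrophages or macrophage RNA in these values was not tested. The mesothelial markers, given above, summed lower in every co-culture and BMS493 library than in any PDPN+ library cultured alone. Their part was not tested either.

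**Figure D4:**
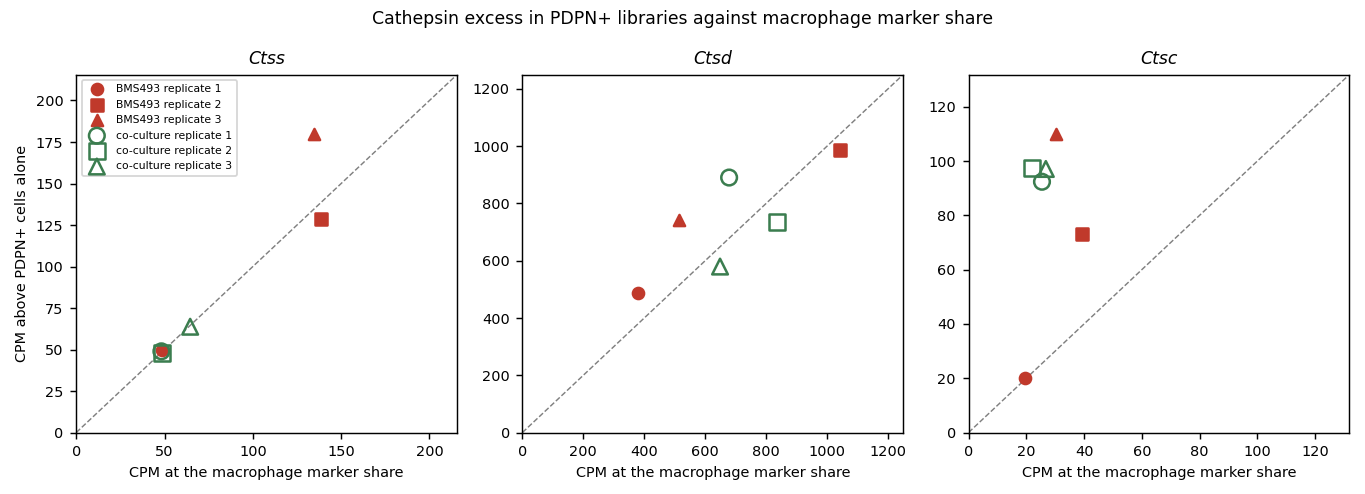
Each panel plots 1 gene in the BMS493 (filled) and co-culture (open) PDPN+ libraries, with the CPM above PDPN+ cells alone on the y axis and the CPM that the macrophage marker share would give on the x axis; the dashed line marks equal values. The 3 co-culture points of Ctss lie near the line at 47.9 to 63.7 CPM, those of Ctsd lie around it, and those of Ctsc lie above it at 92.4 to 97.5 CPM.

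The co-culture effect was compared directly between the cell types with an interaction term. Of 10 cathepsins 1 was called, Ctss, where 0.986% of all genes tested were called and 0.505% in that direction. Beside the PDPN+ values given above, Ctss in macrophages had 3361, 4040 and 4158 CPM in co-culture against 3311, 5159 and 4745 CPM alone. The difference was 4.97 ± 0.90 on the log2 scale (adjusted p = 0.00471; 0.0659 without batch mbb340). It rests on the same PDPN+ libraries and stands beside the same marker shares as above. Ctsc (1.30 ± 0.45, adjusted p = 0.212) and Ctsd (0.66 ± 0.44, adjusted p = 0.629) did not pass.

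Batch mbb340 set several members apart within every cultured group. Its comparison with the other batches, in both cell types, was added after these values were seen. The p values below are therefore not a test of the choice of that batch. They measure the spread between libraries, not between batches, as mbb340 is a single batch. With group in the fit, 6 of 10 cathepsins differed between batch mbb340 and batches mbb336 and mbb339 in the 15 cultured macrophage libraries, where 27.3% of all genes tested did. Of these, 3 were higher (15.2% of all genes tested) and 3 lower (12.1%). Ctsk was higher in batch mbb340, with 22.7, 13.4, 14.95, 26.9 and 37.8 CPM in the libraries cultured alone, with ATRA, in co-culture, in transwell culture and with BMS493. The libraries of batches mbb336 and mbb339 lay between 0.098 and 9.29 CPM. The log2 fold change was 3.60 ± 0.42 (adjusted p = 8.64e-05). Ctsl was higher too, at 2436 to 5464 CPM in batch mbb340 and 424 to 3052 CPM in the other batches (1.58 ± 0.29, adjusted p = 0.00158), as was Ctsz (0.77 ± 0.12, adjusted p = 0.000611). Lower in batch mbb340 were Ctsf, at 9.78 to 26.2 CPM in batch mbb340 and 24.8 to 93.2 CPM in the other batches (-1.77 ± 0.22, adjusted p = 0.000148), Ctsb (-0.70 ± 0.16, adjusted p = 0.00767) and Ctsa (-0.33 ± 0.11, adjusted p = 0.0429). The Ctsa call held in 4 of 15 fits that left out a library, those without BMS493 replicate 1 or 3, ATRA replicate 1 or replicate 2 cultured alone, and the other 5 calls in all 15. Ctss (0.07 ± 0.14), Ctsc (-0.18 ± 0.11), Ctsd (-0.37 ± 0.20) and Ctsh did not pass, and the ex vivo libraries, which were not in this fit, held 0.143 CPM of Ctsk in batch mbb340.

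In the 12 PDPN+ libraries another member led. Ctsh had 247, 170, 133 and 64.7 CPM in batch mbb340 with BMS493, in co-culture, in transwell culture and alone, against 25.9 to 49.8 CPM in batches mbb336 and mbb339. Those batch mbb340 libraries came from 8229, 2148, 19265 and 25000 sorted cells in that order. Batch mbb340 was highest in each group, with a log2 fold change of 2.06 ± 0.25 (adjusted p = 0.0271), and Ctsh was the only cathepsin called, where 0.047% of all genes tested were called and 0.0418% were higher. The call held in 2 of 12 fits that left out a library, those without transwell replicate 1 or replicate 3 cultured alone, with an adjusted p of up to 0.292. Ctsk followed at 1.53 ± 0.24 (adjusted p = 0.0826). In co-culture the Ctsh excess over PDPN+ cells alone was -13.2, -4.58 and 128 CPM in batches mbb336, mbb339 and mbb340, against a marker share worth 10.6, 11.5 and 11.7 CPM. The sources used here do not give what the batch numbers stand for, and the cause of these differences was not tested.

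**Figure D5:**
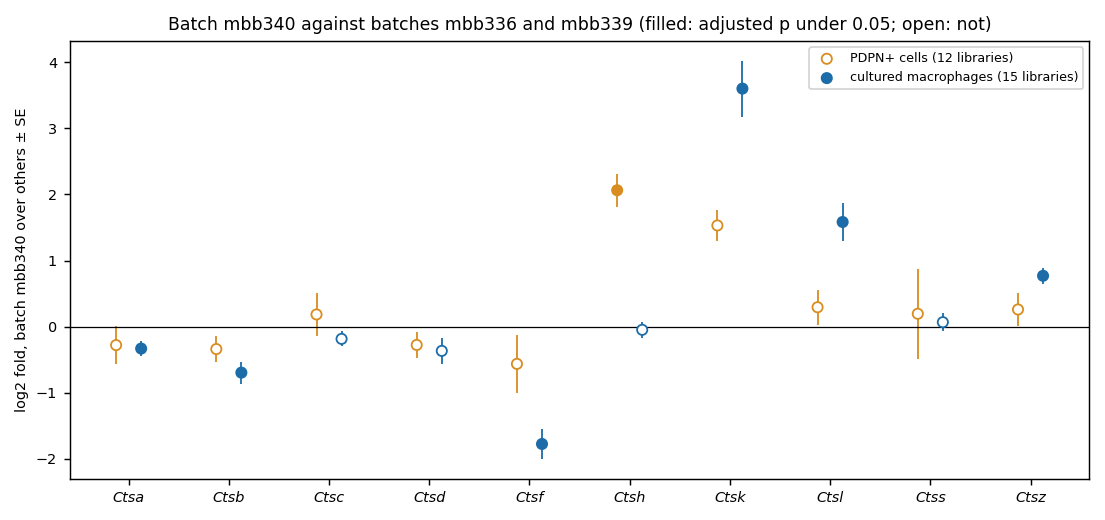
For each gene on the x axis, dots give the log2 fold change of batch mbb340 over batches mbb336 and mbb339, with bars for the standard error, in PDPN+ cells (orange) and cultured macrophages (blue); filled dots passed an adjusted p under 0.05. Ctsk, Ctsl and Ctsz stand above 0 and Ctsf, Ctsb and Ctsa below it in macrophages, and Ctsh at 2.06 is the only filled dot of PDPN+ cells. The comparison was added after the data were seen.

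The genes whose levels followed each of the 3 most variable members most closely were sought among 10364 genes with at least 10 CPM in some group. Likeness was the Pearson correlation of mean log2(CPM + 1) over the 10 group means, which share the same libraries and the same split into cell types. For Ctss the closest were Lcp1 (0.997), an actin-bundling protein of leukocytes, Mia2 (0.996) and Lyz2 (0.996), the macrophage lysozyme. For Ctsd, Zfp991 (0.996) and Acox3 (0.996) were among the closest. For Ctsk they were Tns3 (0.981), Dusp4 (0.978), a phosphatase of MAP kinases, and Cd276 (0.977).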

How the data were processed

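In the deposited tables the count column holds uniquely aligning reads, used for tests and CPM. The value column is an RPKM that the authors adjusted by a size factor (nRPKM, per the file headers), used only for levels between genes. GSNAP and GRCm38 are named in the submitters' processing notes. The sources used here do not give versions, annotation, strand setting or filters. Identifiers without a symbol (192) held 0.0358% of counts. Positions come from GENCODE for GRCm38, and promoter sequences from RefSeq (GRCm38.p6).

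The quasi-likelihood test of edgeR (4.0.16, with limma 3.58.1 in R 4.3.3) was run on TMM-scaled counts past the default filter, in 18 macrophage libraries (17774 genes), 12 PDPN+ libraries (19134 genes) or all 30 (20987 genes, for the comparisons between cell types). Benjamini-Hochberg adjustment covered every gene tested, with calls at 0.05. Adjusted p values come from this test unless DESeq2 (1.42.0) is named. The shares of all genes called are of this test too. Shares by DESeq2, in the alternative fits or at an unadjusted p under 0.05 are not given. Member counts from these therefore cannot be read against a share of all genes. The standard error is the absolute log2 fold change divided by the square root of F, and levels are CPM, as mean ± SD of 3 libraries. The fits were tested on simulated data.

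Nothing in the labels says that replicates come from separate animals or cultures, so p values measure the spread between these samples only. The labels pair replicate numbers through the batch. Same-numbered libraries deviated together with a median r across genes of 0.186 in macrophages (45 pairs) and 0.11 in PDPN+ cells (18 pairs), so a fit with batch as a block stands beside the main one. No replicates were copies (lowest chi-square per degree of freedom 42.7). Intervals cover counting error only.

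The members and the gene lists were chosen with earlier results of these data known. All members are named; from each related list, up to 3 called genes per direction with the largest change and at least 10 CPM could be named, and any cystatin. Alternatives were DESeq2, another scaling, no low count filter, the compared groups alone, the replicate block, no batch mbb340, and leaving out each library. The comparison of batch mbb340 with the other batches was added after seeing the data. Among the genes most like Ctsd, 1 is not reported here.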

Additional observations from a re-analysis of the deposited data

Results flagged for a closer look

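The co-culture effect on Ctss differed between the cell types, by 4.97 on the log2 scale in a test of the difference itself (adjusted p = 0.00471), with Ctss 48.9, 47.9 and 63.7 CPM above PDPN+ cells alone in the PDPN+ co-culture libraries. The share of the macrophage level given by the median of the macrophage markers came to 48.2, 48.7 and 64.5 CPM in the same libraries, and the difference between the cell types did not pass without batch mbb340 (adjusted p = 0.0659).

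Ctsz had log2 ratios of opposite sign in the cell types with co-culture in every batch. It was picked by this sign rule among the 10 members, and the share of all genes that meet the rule was not counted. The log2 ratio of co-culture over culture alone was 0.4373, 0.1745 and 0.03055 in macrophages and -0.1698, -0.2984 and -0.4647 in PDPN+ cells of batches mbb336, mbb339 and mbb340 in that order. An interaction term put the difference at -0.47 ± 0.52 (adjusted p = 0.809), which did not pass, and the libraries of each pair of groups overlapped.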

How the results depend on the processing

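All values here are counts of the 10 cathepsins called, unless a log2 fold change is named. No share of all genes called is given for the alternative fits, so a changed count cannot be read as a result about cathepsins. Against ex vivo macrophages, the 6 calls of macrophages cultured alone ranged from 3 to 6, and the 6 calls with ATRA from 2 to 6, when 1 library was left out, and Ctsd and Ctss held throughout. DESeq2 called 1 where edgeR called none in macrophages in co-culture, in transwell culture and with BMS493 against culture alone, and with BMS493 against co-culture. In PDPN+ cells DESeq2 called 3 in co-culture against culture alone, 2 against transwell and 3 with BMS493 against culture alone. With the compared groups fitted alone, 1 (Ctss) was called in co-culture and 1 with BMS493, against PDPN+ cells cultured alone, and the BMS493 comparison also gave 1 with RLE size factors and 1 without the low count filter. Without batch mbb340 the difference in co-culture effect gave 0 calls (adjusted p of Ctss 0.0659 by edgeR). The batch comparison in PDPN+ cells gave 1 call, 2 with DESeq2, 2 without the low count filter and 0 to 2 with a library left out.

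With the batch as a replicate block, which the labels' pairing supplies, 8 were called in each comparison with ex vivo macrophages, 8 of PDPN+ cells against macrophages, and 1 (Ctsk) with BMS493 against co-culture in macrophages. The block changed no other count. The share of all genes that this fit called is not given, so a changed count cannot be read as a result about cathepsins. The log2 fold change of Ctsh in macrophages cultured alone against ex vivo changed sign to -0.017 without the low count filter and ranged from -0.044 to 0.16 with 1 library left out. That of Ctsf in co-culture against ex vivo turned to 0.33 without batch mbb340 and ranged from -0.47 to 0.31 with 1 library left out, and that of Ctsh between batches in macrophages from -0.12 to 0.016; none of these passed a test, and the cause was not tested. Taken from CPM without gene length, Ctsd made up 36.7% in PDPN+ cells with BMS493, 32.2% in co-culture, 17.7% in transwell culture and 19.1% alone. In macrophages it made up 52.0% with BMS493, 63.4% in co-culture, 53.96% in transwell culture, 68.1% with ATRA, 58.8% alone and 36.9% ex vivo. On that scale Ctsb had the highest mean share in PDPN+ cells alone (41.5%), in transwell culture (37.7%) and in co-culture (32.8%). Ctsd was highest in the other groups, so its first place in every group holds only with the length scaling. Depth limits Ctsk ex vivo, which rests on 5 counts. Ctss in PDPN+ cells cultured alone is low too but rests on 296 counts.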
